A study of Homo sapiens with 27 samples.

Results

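Etoposide-induced senescence and contact-inhibited quiescence, both regarded as states of arrest in cultured fibroblasts, were compared by RNA-seq. Whether all cells in these cultures had stopped dividing was not tested. The etoposide libraries came from IMR90 cells driven into senescence with etoposide at 50 µM, given in 3 treatments and harvested at day 10, and the quiescent libraries came from IMR90 cells held by contact inhibition. There were 3 libraries of each, which makes 6 of the 27 libraries in the series and 6 of its 13 RNA-seq libraries. They were chosen by their labels alone. IMR90 is an established line of human fetal lung fibroblasts, labelled wild type in every group, and the cells were grown in high-glucose DMEM with fetal bovine serum. How long the quiescent cells stayed confluent is not given in the labels, and no vehicle-treated cultures were used here, so the state, the drug and the time in culture cannot be told apart. A second senescent state, 3 libraries of cells given 15 Gy of ionising radiation and harvested after 10 days, and 2 libraries of untreated cycling cells harvested below confluence serve as reference points. Nothing in the labels says whether replicates were separate cultures, so every p-value measures the spread between these libraries, which may be technical.

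Senescence is a stable exit from the cell cycle after damage. Etoposide causes such damage by trapping type II topoisomerases on cut DNA, which leaves double-strand breaks. Senescent fibroblasts are known for secreting chemokines, cytokines, growth factors and proteases, together called the senescence-associated secretory phenotype, for a high content of lysosomes, and for losing lamin B1. Contact-inhibited cells also stop dividing, but reversibly and without a damaging agent, and they are often used as the arrested control for senescent cells.

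Sequencing depth was 31780641 to 41351402 gene counts in the etoposide libraries and 25767858 to 29200957 in the quiescent ones. Quiescent replicate 3 stood apart: 40.6% of its reads did not map, against 27.8 to 32.8% in the other 5, and 96.1% of its gene counts fell on protein-coding genes, against 89.6 to 91.6%. The mitochondrial share of gene counts was 0.341 to 0.615% in the etoposide libraries and 0.0587 to 0.187% in the quiescent ones. All 12 fibroblast markers were expressed, with a summed level of 9693 to 11126 counts per 1000000 counts (CPM) after etoposide and 9439 to 12916 in quiescence. All 8 leukocyte markers stayed below 1 CPM in every library, with sums of 1.43 to 1.89 CPM after etoposide and at most 0.228 in quiescence. Of 7 endothelial markers, 5 were below 1 CPM in all 6 libraries, PECAM1 and CDH5 among them. The sum of all 7 was 56.8 to 89.9 CPM after etoposide and 14.5 to 29 in quiescence, most of it TEK, a receptor tyrosine kinase, at 87.8, 58.5 and 54.1 CPM against 12.8, 26.4 and 26.6 CPM. The part of such cells or of the mitochondrial share in any result was not tested.

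Of 13295 protein-coding genes tested, 5543 (41.7%) differed between etoposide-treated and quiescent cells at an adjusted p below 0.05 in edgeR's quasi-likelihood test, and such genes are the ones said to be called, to rise or to fall. They divided almost evenly into 2803 higher after etoposide (21.1% of all genes tested) and 2740 lower (20.6%). Counts in the gene lists are to be read beside these shares. The median log2 difference of all genes was -0.02. Among the called genes, 1269 were at least 2-fold higher and 788 at least 2-fold lower, and at 4-fold the counts were 457 and 212. CPM did not overlap between the 3 etoposide and the 3 quiescent libraries in 2714 of the genes that rose (96.8%) and in 2608 of those that fell (95.2%). Lack of overlap is thus usual for a called gene and adds little to its call. The share over all genes tested was not counted. Leaving out quiescent replicate 3 gave 5529 calls. In bulk RNA, fewer cells making a transcript and less transcript per cell cannot be told apart.

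**Figure D1:**
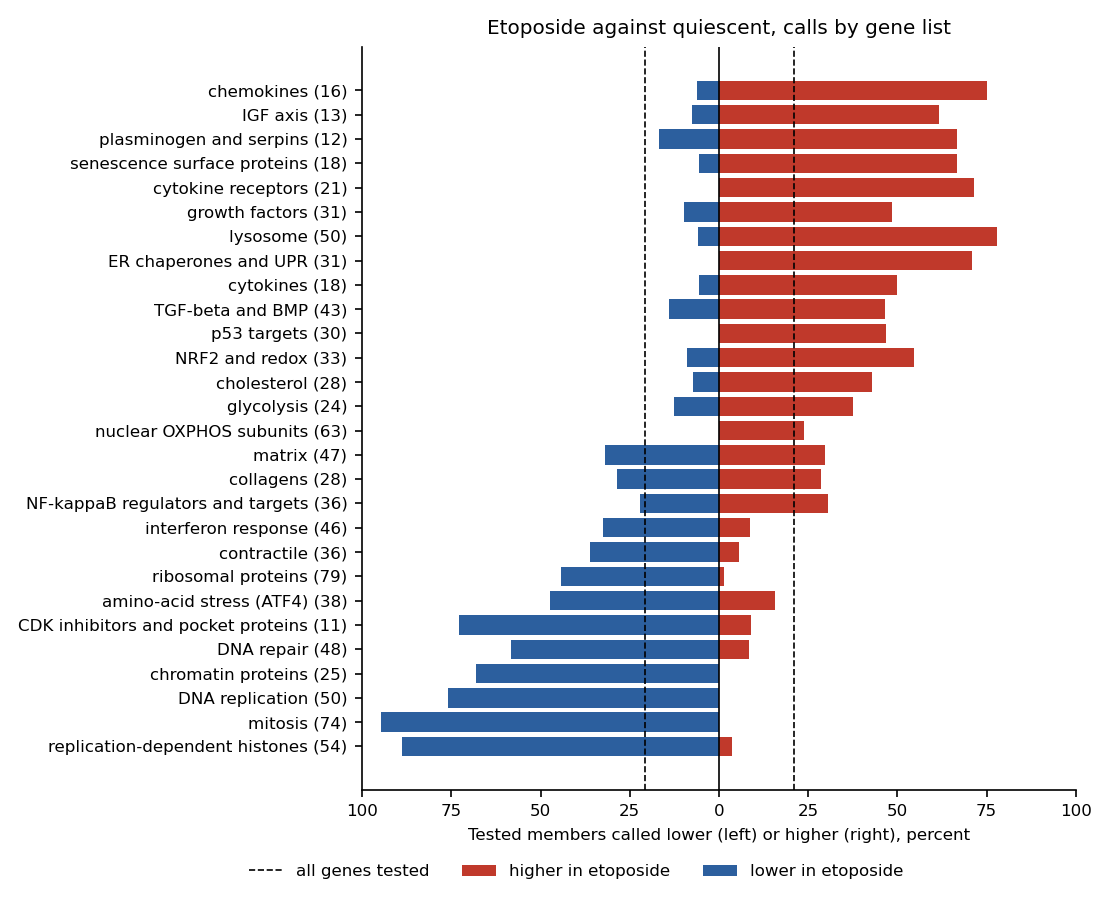
Share of the tested members of each gene list (rows, with the number tested) called higher (red, to the right) or lower (blue, to the left) after etoposide than in quiescence, in percent of the members tested. Dashed lines mark the shares over all 13295 genes, 21.1% higher and 20.6% lower. Histone and mitosis genes lie almost wholly on the lower side, and chemokine, lysosome and unfolded protein response genes mostly on the higher side.

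Of 47 gene lists examined, secreted chemokines, small proteins that attract leukocytes, had the highest median. Of 16 chemokine genes tested, 12 rose after etoposide and 1 fell, with a median log2 difference of 3.85, or 3.74 when the 2 genes with no quiescent count are set at their lower bound. Of 24 listed chemokines, 8 had too few counts to be tested. CCL20 and CCL13, with no quiescent count, passed the filter on low counts only through other states, so the count and the median lean towards rises. Without etoposide replicate 1 the fitted median was 3.21. The summed chemokine level was 1800, 612.3 and 1002 CPM in the 3 etoposide libraries and 87.5, 81.9 and 122.8 CPM in the 3 quiescent ones. Every etoposide library thus lay far above every quiescent one, and the 3 differed among themselves by more than the quiescent ones did.

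Much of that rise came from 1 stretch of chromosome 4, a cluster of CXC chemokines, most of which attract neutrophils through the receptors CXCR1 and CXCR2. Between CXCL8 and CXCL2 (GRCh38, chr4:73740569-74099195, 358.6 kb), all 7 protein-coding genes tested were higher after etoposide: CXCL8, CXCL6, PF4V1, CXCL1, CXCL5, CXCL3 and CXCL2. CXCL1, CXCL2 and CXCL3 are close copies of each other, as PF4V1 is of PF4, so the division of reads among them is uncertain. The windows in front of 6 of these genes hold the same 9 bases, which have the form of a site for NF-kB, the main transcription factor of inflammation. They are shown because these genes rose together, from the RefSeq promoters of GRCh38.p14, 5′ to 3′ on the strand of the gene, with the 9 matching bases in capitals. The last capital lies 69 to 83 bases before the annotated start.
CXCL8 (chr4:73740463-73740501, plus strand): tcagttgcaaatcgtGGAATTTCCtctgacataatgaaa
CXCL6 (chr4:73836574-73836612, plus strand): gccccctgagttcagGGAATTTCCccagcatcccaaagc
CXCL5 (chr4:73998744-73998782, minus strand): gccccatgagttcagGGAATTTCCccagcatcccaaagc
CXCL1 (chr4:73869300-73869338, plus strand): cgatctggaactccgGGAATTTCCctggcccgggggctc
CXCL3 (chr4:74038744-74038782, minus strand): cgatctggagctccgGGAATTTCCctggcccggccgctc
CXCL2 (chr4:74099249-74099287, minus strand): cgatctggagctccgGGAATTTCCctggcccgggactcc

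Position by position, the stretches of CXCL5 and CXCL6 were identical in 38 of 39 bases and those of CXCL1 and CXCL3 in 36, while that of CXCL8 shared 16 to 19 with the others, the 9 capitals included. Counted on both strands of the 250 bases before the start, the letters GGANTTTCC occurred in 7 of 11 windows (63.6%) of the chemokines that rose and in 1.48% of 15963 windows of the genes tested, of which 10827 were matched to RefSeq by symbol. The letters were chosen with these sequences in view, and a match is a description of the sequence and not evidence of binding.

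CXCL5, a neutrophil attractant, was measured at 457, 94.7 and 136 CPM after etoposide and at 0.486, 1.09 and 3.18 CPM in quiescence. The log2 difference was 7.19 ± 0.79 (SE, 3 against 3 libraries, edgeR adjusted p = 1.42e-05). It was 6.20 without etoposide replicate 1, the highest library, and 8.18 without quiescent replicate 3, the highest quiescent one. CXCL6 showed the same order of libraries, with 208, 25.3 and 39.7 CPM against 0.56, 1.66 and 4.47 CPM. Its log2 difference of 5.36 ± 0.81 dropped to 3.88 without etoposide replicate 1 and stayed called.

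CXCL8, which encodes interleukin-8, stood at 437, 152 and 279 CPM after etoposide and at 6.39, 8.56 and 23.3 CPM in quiescence, a log2 difference of 4.51 ± 0.62 (edgeR adjusted p = 8.53e-05) and of 5.27 without quiescent replicate 3. CXCL1 was at 395, 130.2 and 279 CPM against 4.44, 6.45 and 13.6 CPM. For both genes etoposide replicate 1 was the highest and replicate 2 the lowest of its group, and all 3 were above every quiescent library. CXCL3 differed by 5.13 ± 0.52 on the log2 scale and CXCL2, the least changed of the cluster, by 2.82 ± 0.55. PF4V1 had 780 counts over the etoposide libraries and 4 over the quiescent ones, too few there to pass the filter on low counts.

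Among chemokines outside the cluster, CCL2, which attracts monocytes, was more even: 206, 172 and 175 CPM after etoposide against 57.9, 41.2 and 50.7 CPM, a log2 difference of 1.89 ± 0.17. CCL20 and CCL13 had no count in any quiescent library and were at least 30.3-fold and at least 13.4-fold higher after etoposide, against a floor of 3 counts over the quiescent group. CXCL12, a homing signal for stem cells and lymphocytes, was the member that fell, by 1.07 on the log2 scale.

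**Figure D2:**
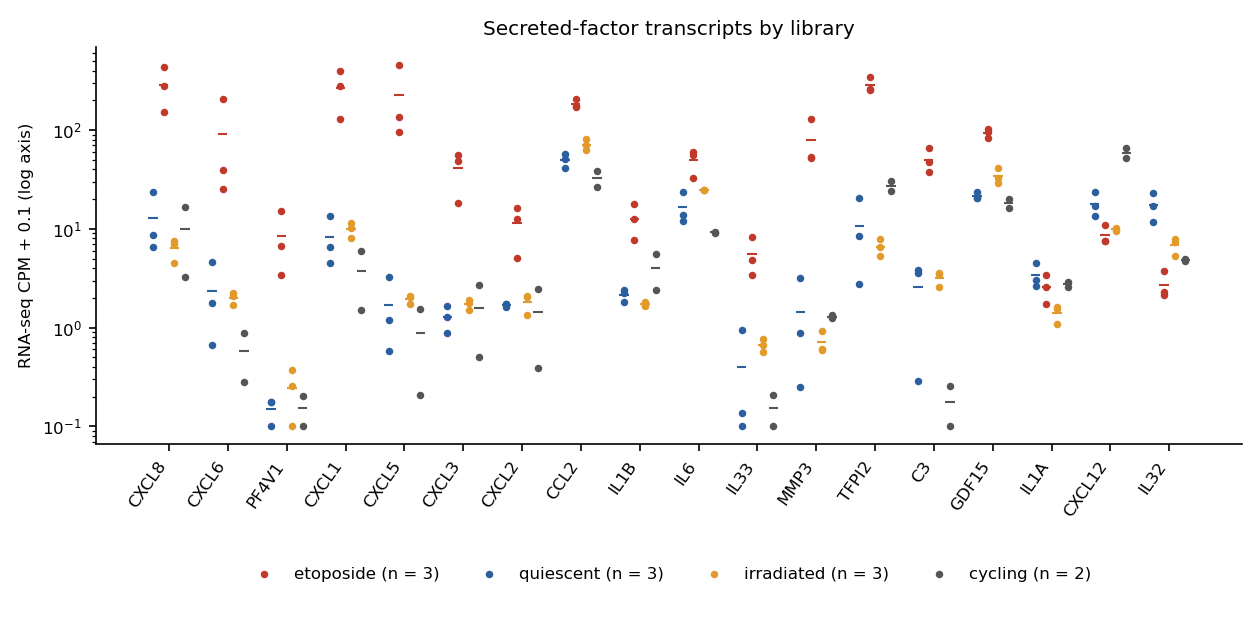
CPM of 18 transcripts of secreted factors in each etoposide, quiescent, irradiated and cycling library, 1 point per library and a line at the mean, on a log10 axis of CPM plus 0.1. For the CXC cluster the etoposide points lie apart from all other states, while IL1A overlaps between states and IL32 and CXCL12 are lower after etoposide than in quiescence.

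The cytokines were mixed. Of 18 tested, 9 were higher and 1 lower, with a median log2 difference of 0.72. IL6, the best known cytokine of the secretory phenotype, was at 55.5, 33.0 and 59.4 CPM after etoposide and 12.1, 13.8 and 23.6 CPM in quiescence (1.58 ± 0.25 on the log2 scale, edgeR adjusted p = 0.000271). IL1B, an alarm cytokine processed by the inflammasome, was at 12.4, 7.69 and 17.6 CPM against 2.32, 1.73 and 2.13 CPM. Groups did not overlap for either gene. IL1A, often placed upstream of the secretory phenotype as a membrane-bound signal, overlapped between the groups, with 3.35, 1.65 and 2.50 CPM against 2.91, 2.56 and 4.43 CPM (-0.40 ± 0.36, edgeR adjusted p = 0.392).

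IL32 was the cytokine that fell, from 23.2, 17.1 and 11.7 CPM in quiescence to 2.06, 2.18 and 3.61 CPM after etoposide, by 2.72 ± 0.30 on the log2 scale. IL33, a nuclear alarm cytokine, rose by 4.23 on that scale, a value that rests on 22 quiescent counts and went to 7.89 without quiescent replicate 3, which held most of them. LIF and IL11, both ligands of the gp130 receptor family, rose by 0.89 and 1.10. The receptors moved in the same direction: 15 of 21 cytokine and chemokine receptors rose and 0 fell, with a median of 0.85. IL13RA2, a decoy receptor for interleukin-13, rose by 4.09 ± 0.41, IL7R by 1.68 ± 0.20 and OSMR, the receptor of oncostatin M, by 1.10 ± 0.21.

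Genes of the NF-kB pathway moved both ways. Of 36 regulators and targets tested, 11 rose and 8 fell, which is 52.8% called, beside 41.7% of all genes. The median log2 difference was 0.02, its sign changed in some of the alternatives tried, and 5 fell without etoposide replicate 1. Among the members that rose were PTGS2, which makes prostaglandins, by 3.54 ± 0.53, and by 4.17 without quiescent replicate 3, the adhesion molecules VCAM1 by 2.25 ± 0.26 and ICAM1 by 1.20 ± 0.20, and SOD2, the mitochondrial superoxide dismutase, by 1.16 ± 0.16. Among those that fell were BIRC3 by 1.61, the NF-kB subunit REL by 0.78 and TRAF1 by 0.72, whereas NFKBIZ rose by 1.75 ± 0.19. NFKB1 (-0.13), RELA (-0.26), NFKBIA (-0.07) and TNFAIP3 (0.07) did not pass the test. IL6 also holds the searched letters, shown because it rose too, with the last capital 64 bases before the start. On the NF-kB list the letters occurred in 3 of 21 windows (14.3%) of the genes that rose and in 11 of 54 (20.4%) of all members tested.
IL6 (chr7:22727113-22727151, plus strand): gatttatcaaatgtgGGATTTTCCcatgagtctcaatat

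Among proteases, MMP3, or stromelysin-1, a matrix-degrading enzyme, was at 131, 51.6 and 54.0 CPM after etoposide and at 0.149, 0.792 and 3.06 CPM in quiescence, a log2 difference of 5.90 ± 0.63 (edgeR adjusted p = 1.17e-05) and of 7.38 without quiescent replicate 3. Of 17 matrix metalloproteinases and their inhibitors, 5 rose and 0 fell, and the median was 0.48. The 29.4% that rose stand beside 21.1% of all genes. MMP1, the interstitial collagenase, did not pass (0.25 ± 0.22), and neither did MMP2 or MMP14. TIMP1, the inhibitor of these enzymes, rose by 1.55 ± 0.16.

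TFPI2, a serine protease inhibitor of the matrix, was at 348, 254 and 259.7 CPM against 2.65, 8.41 and 20.6 CPM, 4.77 ± 0.50 on the log2 scale and 5.70 without quiescent replicate 3. In the plasminogen system 8 of 12 genes rose and 2 fell, with urokinase (PLAU) higher by 1.37 ± 0.21. C3, the central component of complement, had 65.9, 37.5 and 47.4 CPM against 0.187, 3.73 and 3.50 CPM, the lowest quiescent value being that of replicate 1. Of the whole complement list 6 of 19 rose and 3 fell, or 1 fell without etoposide replicate 2. The 47.4% called was near the 41.7% of all genes.

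Growth factor transcripts rose in 15 of 31 cases and fell in 3, with a median of 0.85. STC1, a secreted glycoprotein hormone, was at 129.7, 102 and 164 CPM against 18.4, 18.5 and 18 CPM. FGF2, a mitogen of fibroblasts, was at 1047, 807 and 724 CPM against 159, 184 and 236 CPM. In neither did the groups overlap. HGF rose by 1.77, NRG1 by 2.01 and the epidermal growth factor family member EREG by 1.73, while VEGFA (-0.04) and PDGFC (-0.07) did not pass the test and midkine (MDK) fell by 1.30. Among 13 genes of the insulin-like growth factor system 8 rose and 1 fell. Its binding proteins IGFBP3 and IGFBP7 rose by 2.10 ± 0.41 and 2.04 ± 0.31, and IGFBP3 by 2.76 without quiescent replicate 3. GDF15, a stress-induced member of the transforming growth factor family, rose by 2.12 ± 0.15.

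Histone genes had the lowest median of the lists examined. Of 54 replication-dependent core and linker histone genes tested, 48 fell after etoposide and 2 rose, with a median log2 difference of -3.07. Their summed level was 1305, 1282 and 1258 CPM after etoposide and 3951, 5185 and 3246 CPM in quiescence, so that the groups did not overlap. The cycling libraries had 6682 and 5148 CPM, with cycling replicate 2 below quiescent replicate 2. The 15 largest falls among called genes without overlap and with at least 5 CPM in quiescence were all histone genes. Most lie in the clusters of chromosome 6, where 43 of 48 fell and 1 rose, with 4 of 5 falling on chromosome 1. Histone genes are near copies of each other and their reads can be split among them, so single values are uncertain. Most transcripts of these genes lack a poly(A) tail, so their measured level depends on whether RNA was selected by that tail. The labels mention removal of ribosomal RNA, but leave unclear whether that step covered the RNA-seq libraries as well as the footprints.

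H2BC14 was at 0.663, 0.972 and 1.13 CPM after etoposide and at 32.7, 47.5 and 31.4 CPM in quiescence, a log2 difference of -5.31 ± 0.26 (edgeR adjusted p = 3.87e-08). Its neighbour H2AC14 was at 0.872, 0.766 and 1.02 CPM against 30.9, 43.1 and 30.1 CPM. Both are transcribed away from each other, and the 244 bases between them (chr6:27814778-27815021, GRCh38.p14, plus strand, RefSeq) are shown because the pair fell together. The capitals mark the letters CCAAT on either strand, which occur 5 times.
H2AC14 to H2BC14: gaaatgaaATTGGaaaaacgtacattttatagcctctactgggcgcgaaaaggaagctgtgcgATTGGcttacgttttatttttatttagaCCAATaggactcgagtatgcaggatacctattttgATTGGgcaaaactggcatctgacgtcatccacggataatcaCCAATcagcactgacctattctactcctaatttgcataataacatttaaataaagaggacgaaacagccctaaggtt

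CCAAT, the short element bound by the factor NF-Y, was found in 40 of 45 windows (88.9%) of the histone genes that fell, in 48 of 76 (63.2%) of the mitotic genes that fell, in 25 of 43 (58.1%) of the replication genes that fell and in 32.8% of windows of all genes tested. Over all members tested, called or not, the CCAAT shares were 84.6% for histones, 64.6% for mitosis and 54.4% for replication. H1-5, a linker histone, fell from 155, 242 and 139 CPM to 11, 9.31 and 6.81 CPM. Against the rest, H2AC6 rose slightly, with 261, 261 and 223 CPM after etoposide and 197, 191 and 174 CPM in quiescence (0.41 ± 0.11), and the linker histone H1-2 did not pass the test (-0.24 ± 0.12). The other member that rose, H4C14, stayed below 2 CPM and lost its call in 5 alternatives, 3 of which left out a library (etoposide replicate 2, quiescent replicate 1 or quiescent replicate 2).

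Genes of mitosis were next. Of 74 tested, 70 were lower after etoposide and 0 higher, against 20.6% lower over all genes, and the median log2 difference was -2.23. The summed level was 874.6, 812.2 and 718 CPM after etoposide, 2046, 2999 and 2319 CPM in quiescence and 5590 and 5196 CPM in the 2 cycling libraries. Quiescent cells thus lay between the senescent and the cycling ones, and quiescent replicate 2 was the highest of its group.

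MKI67, the Ki-67 proliferation marker, was at 7.78, 6.51 and 4.98 CPM after etoposide and at 41.3, 148 and 53.3 CPM in quiescence, a log2 difference of -3.66 ± 0.45 (edgeR adjusted p = 3.45e-05) and of -2.88 without quiescent replicate 2. In the cycling libraries MKI67 was at 144 and 166 CPM, so quiescent replicate 2 lay within their range. CDC20, the activator of the anaphase-promoting complex, was at 4.75, 5.33 and 3.37 CPM against 28.1, 44.6 and 32.2 CPM. Every quiescent library was above every etoposide library in both genes. The polo-like kinase PLK1 fell by 2.96, the checkpoint kinase BUB1 by 2.84, CDK1, the kinase that drives mitosis, by 2.05, and its cyclins CCNB1 and CCNB2 by 1.72 and 2.00. The windows before the mitotic genes often hold TTTGAA, the cell cycle genes homology region (CHR), at which the DREAM complex represses mitotic genes in arrested cells. Examples are shown for members named above, with the element in capitals, whose last base lies 24 to 60 bases before the start.
CDC20 (chr1:43358901-43358936, plus strand): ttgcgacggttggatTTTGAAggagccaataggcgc
PLK1 (chr16:23678845-23678880, plus strand): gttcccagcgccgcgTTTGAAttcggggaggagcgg
CCNB2 (chr15:59105102-59105137, plus strand): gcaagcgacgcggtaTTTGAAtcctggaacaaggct

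On both strands of 250 bases, TTTGAA occurred in 31 of 76 windows (40.8%) of the mitotic genes that fell, in 18 of 45 (40%) of the histone genes that fell, in 0 of 43 windows of the replication genes that fell and in 9.43% of windows of all genes tested. Over all members tested, called or not, the shares were 41.8% for mitosis, 36.5% for histones and 0 of 57 windows for replication. A match is not evidence of binding, and no match says only that these letters are absent from the window.

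DNA replication genes fell more moderately, 38 of 50 lower and 0 higher with a median of -0.92. MCM5, a subunit of the replicative helicase, fell by 1.70 ± 0.14, and PCNA, the sliding clamp that also serves DNA repair, did not pass (0.32 ± 0.13), though it did in 5 of 14 alternatives, 1 of them without quiescent replicate 3 (0.39). Of 48 genes of double-strand break repair and damage signalling 28 fell and 4 rose, with a median of -0.66, and without etoposide replicate 1 0 rose. In deoxynucleotide synthesis TK1 and RRM2, both produced in S phase, fell by 2.23 and 1.61, while RRM2B, the p53-induced subunit of ribonucleotide reductase, rose by 1.01.

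**Figure D3:**
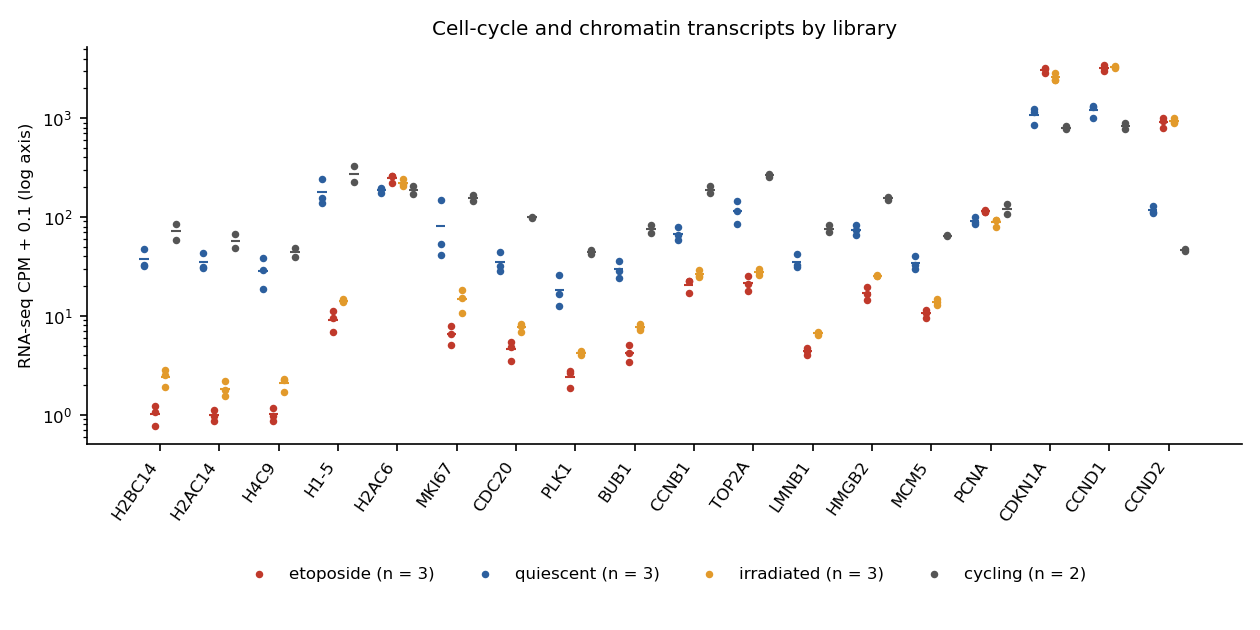
CPM of 18 transcripts of histones, mitosis, replication, the nuclear envelope and cell-cycle control in each etoposide, quiescent, irradiated and cycling library, 1 point per library and a line at the mean, on a log10 axis of CPM plus 0.1. From H2BC14 to MCM5, apart from H2AC6, the etoposide points lie below the quiescent ones, and CDKN1A, CCND1 and CCND2 lie above them.

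The targets of the drug were themselves lower. TOP2A, the topoisomerase II isoform of dividing cells, was at 25.1, 20.9 and 17.6 CPM after etoposide and at 83.9, 144 and 114 CPM in quiescence (-2.43 ± 0.19, edgeR adjusted p = 8.46e-07). TOP2B, the isoform also present in resting cells, was at 140.3, 112 and 128 CPM against 224, 257 and 261 CPM (-0.96 ± 0.11). TDP2, which removes trapped topoisomerase II from DNA ends, rose by 0.60 ± 0.14. Neither topoisomerase overlapped between the groups.

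Regulators of the G1 arrest did not all move one way. CDKN1A, encoding the inhibitor p21, was at 2861, 3178 and 3145 CPM after etoposide and at 1232, 1143 and 841 CPM in quiescence, a log2 difference of 1.51 ± 0.13 (edgeR adjusted p = 2.51e-06). It was the only one of 11 cyclin-dependent kinase inhibitors and pocket proteins that rose, and 8 fell. CDKN2C (p18) fell by 2.29 and CDKN1B (p27), known for its part in contact inhibition, by 1.09. CDKN2A, which encodes p16 and p14ARF together at this gene level, was at 16.7, 19.6 and 20.5 CPM against 37.0, 24.2 and 19.6 CPM. Those groups overlapped, and its call (-0.51 ± 0.19, edgeR adjusted p = 0.0482) was lost in 11 of 14 alternatives, with -0.19 left without quiescent replicate 1.

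The D cyclins rose: CCND2 from 129.7, 109 and 112 CPM to 796, 943 and 1002 CPM, CCND1 by 1.42 ± 0.13 and CCND3 by 1.22 ± 0.13 on the log2 scale. Of the 21 G1 cyclins, their kinases and E2F factors, 5 rose and 12 fell. Among 30 p53 targets 14 rose and 0 fell, with a median of 0.43, including the death receptor FAS by 1.28 and MDM2, the p53 ubiquitin ligase, by 0.69, whereas BAX (0.12), BBC3 (-0.43) and ZMAT3 (0.24) did not pass.

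LMNB1, HMGB2 and EZH2, known to decline in senescence, were lower than in quiescence too. LMNB1, encoding lamin B1, was at 4.61, 4.33 and 3.93 CPM after etoposide and at 30.7, 42.1 and 32.5 CPM in quiescence (-3.03 ± 0.15, edgeR adjusted p = 3.87e-08). HMGB2, a chromatin protein, fell by 2.15 ± 0.14 and EZH2, the methyltransferase of Polycomb, by 2.24 ± 0.14. Of 14 lamins and inner nuclear membrane proteins tested 5 fell and 2 rose, LEMD2 by 0.67 and LEMD3 by 0.49, with a median of -0.20. Of 25 variant histones and high mobility group proteins 17 fell and 0 rose. In LMNB1, HMGB2 and EZH2 the groups did not overlap.

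Lysosomal genes were broadly higher. Of 50 tested, 39 rose and 3 fell (1 without etoposide replicate 1), with a median log2 difference of 0.76. Their summed level was 5741, 6177 and 5857 CPM after etoposide and 2558, 3529 and 3818 CPM in quiescence, beside 4089 and 4337 CPM in the cycling libraries. CTSC, the protease cathepsin C, was at 364, 331 and 272 CPM against 55.6, 78.7 and 109 CPM (1.99 ± 0.19). GLB1, whose product is the beta-galactosidase used to stain senescent cells, rose by 0.76 ± 0.13, and the membrane protein LAMP1 by 0.49 ± 0.16. Quiescent replicate 1 was the lowest for the sum and for all 3 genes. The call of LAMP1 was lost without etoposide replicate 1 (0.48), 2 (0.50) or 3 (0.48).

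Of 31 chaperones, enzymes and other genes of the unfolded protein response of the endoplasmic reticulum 22 were higher than in quiescence and 0 lower, with a median of 0.72. Their summed level was 4376, 4761 and 4539 CPM after etoposide and 1855, 3109 and 3608 CPM in quiescence, but 4613 and 4651 CPM in the cycling libraries, within the etoposide range. DNAJB9, a target of that response, rose by 1.55 ± 0.20. HSPA5, the main chaperone BiP, was at 131, 213 and 272 CPM against 51.2, 144 and 101 CPM, which overlapped. Its call (1.06 ± 0.39) was lost in 6 alternatives, among them without etoposide replicate 2 (1.03) or 3 (0.80) and without quiescent replicate 1 (0.76) or 3 (1.07). ATF4 and integrated stress response genes went the other way: of 38 tested 18 fell and 6 rose, with a median of -0.40. Among them PHGDH, which starts serine synthesis, fell by 1.50 and ATF4 itself by 0.48, while DDIT3 (0.04) did not pass the test.

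Cytosolic ribosomal protein genes were lower in 35 of 79 cases and higher in 1, with a median of -0.33. Their sum was 64479.9, 65009 and 65691 CPM after etoposide and 94409, 72035 and 76654.5 CPM in quiescence, where replicate 1 was the highest. The number called lower was 16 without quiescent replicate 1 and at most 38 over the alternatives. RPL5 fell by 0.64 ± 0.13 and RPS6 by 0.61 ± 0.15. Genes of oxidative phosphorylation were higher in 15 of 63 cases (23.8%), near the 21.1% of all genes, and lower in 0, with a median of 0.20. The glucose transporter SLC2A1 and the lactate exporter SLC16A3 rose by 2.14 and 2.21.

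Of 46 interferon-stimulated genes 4 rose and 15 fell, with a median of -0.25. The 41.3% called in either direction was near the 41.7% of all genes. Among them IFI16 and CGAS, both sensors of DNA, fell by 1.14 and 1.12 and OAS3 by 1.47. Collagens were divided, 8 of 28 higher and 8 lower, which is 57.1% called, beside 41.7% of all genes. Their median of 0.09 changed sign in some alternatives, and 5 were lower without etoposide replicate 2. COL5A2 rose by 1.14 and COL14A1 by 1.47, and COL6A3 fell by 1.09 and COL15A1 by 1.96. Elastin (ELN) fell by 2.44 and the proteoglycan biglycan (BGN) by 2.51. LOX and P3H2, enzymes that modify collagen, rose by 1.39 and 2.91.

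Other large rises were found in genes of several kinds. BEX1 rose by 5.32 ± 0.44, or by 6.03 without quiescent replicate 1, and the fatty acid transporter CD36 by 4.51 ± 0.50. HSD17B2, an enzyme that inactivates sex steroids, rose by 4.31, or by 4.96 without quiescent replicate 1. RSPO3, which amplifies Wnt signals, rose by 4.38, or by 5.58 without quiescent replicate 3. On its list of Wnt ligands, inhibitors and targets 9 of 27 rose and 5 fell, which is 51.9% called, beside 41.7% of all genes. The metalloprotease gene ADAMTS19 rose by 4.43, and of the 16 genes of its family 5 rose and 5 fell (62.5% called). BEX1, CD36, HSD17B2, RSPO3 and ADAMTS19 were taken from the largest rises without overlap, so their lack of overlap follows from that rule.

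The irradiated libraries give the same transcripts in senescence brought on by another agent. Etoposide and irradiated cells differed in 3000 of 13295 genes (22.6%), with 1715 higher (12.9%) and 1285 lower (9.67%) after etoposide. Leaving out etoposide replicate 2 gave 1842 calls and leaving out irradiated replicate 1 gave 1897. With only the compared groups in the fit there were 4385 calls of 12771 genes, and DESeq2 gave 3365. The number lower was 890, 575 and 852 without etoposide replicate 1, 2 and 3, and 650, 839 and 710 without irradiated replicate 1, 2 and 3. This comparison shares the etoposide libraries with that against quiescence, so the values are given side by side and not as independent results. Histone, mitosis and replication genes were nearer in the 2 senescent states: the median log2 differences of etoposide from irradiated cells were -0.64, -0.52 and -0.10, beside -3.07, -2.23 and -0.92 from quiescent cells. Counts were 31 of 54 lower, 24 of 74 lower and 3 of 50 lower.

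The summed histone level was 1465, 1515 and 1456 CPM after irradiation and that of mitotic genes 947, 941.9 and 1047 CPM, above the etoposide libraries and below the quiescent ones. CDKN1A did not pass the test between the senescent states, with 2444, 2858 and 2429 CPM after irradiation (0.25 ± 0.13, edgeR adjusted p = 0.202), nor did CCND2, with 912, 884 and 997 CPM (-0.03 ± 0.11). The p53 targets had a median of 0.01 between the 2, with 5 higher and 3 lower.

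Secreted factors followed another order. The summed chemokine level after irradiation was 104.9, 114.5 and 102.2 CPM, in the range of the quiescent and cycling libraries, and 11 of 16 chemokines were higher after etoposide than after irradiation, with a median of 2.62. CXCL8 was at 4.47, 6.87 and 7.41 CPM after irradiation and MMP3 at 0.492, 0.507 and 0.824 CPM, below 1 in every irradiated library. Etoposide exceeded irradiation by 5.53 ± 0.65 and 7.01 ± 0.69 on the log2 scale in these 2 genes. For IL6, at 24.6, 24.6 and 24.8 CPM after irradiation, the difference was 1.00 ± 0.25. Lysosomal genes were higher than in irradiated cells in 34 of 50 cases, unfolded protein response genes in 25 of 31, and cytokine receptors in 13 of 21, with 0 lower in each list. The part played by agent, dose and schedule of treatment in these differences was not tested.

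**Figure D4:**
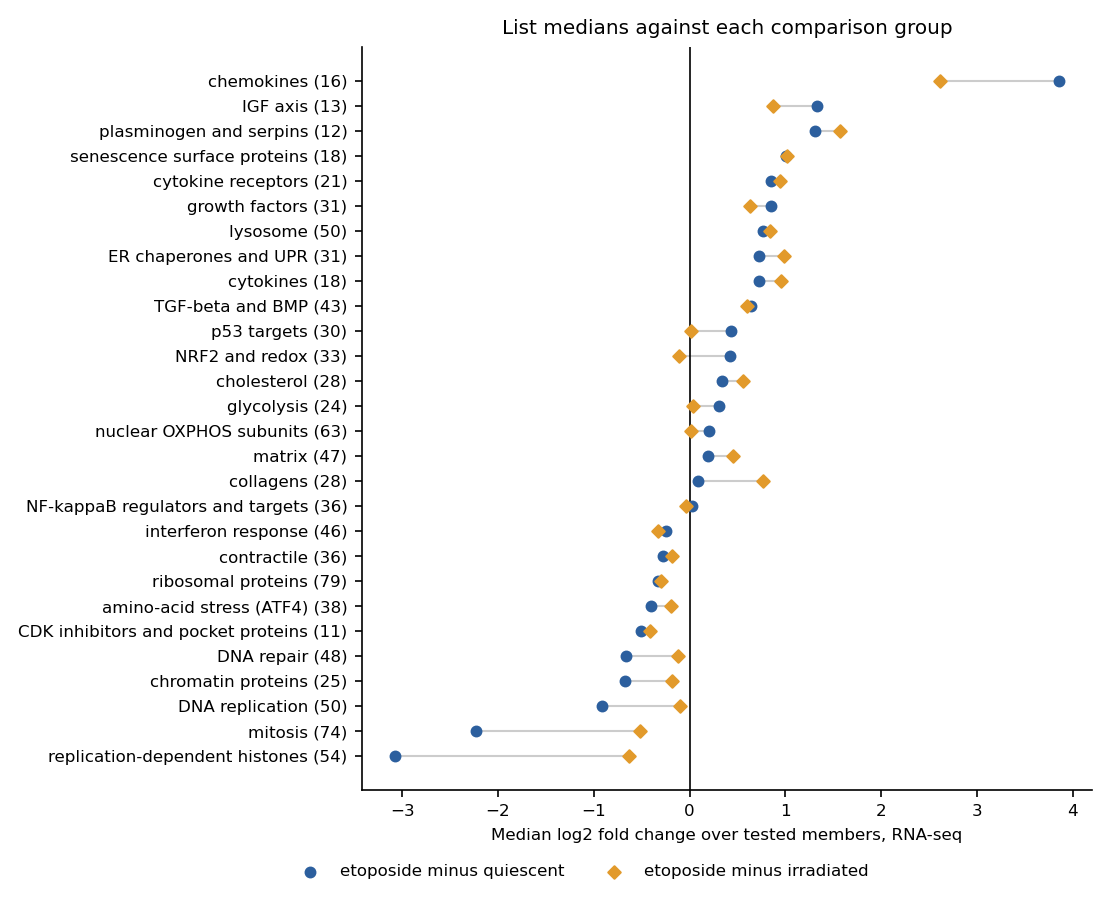
Median log2 difference over the tested members of each gene list (rows, with the number tested), for etoposide minus quiescent (circles) and etoposide minus irradiated libraries (diamonds). Both share the etoposide libraries. Histone and mitosis medians are -3.07 and -2.23 against quiescence and -0.64 and -0.52 against irradiation, while chemokines are at 3.85 and 2.62.

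Ribosome profiling, which sequences the stretches of RNA covered by ribosomes, was done on the same lysates and offers another readout of the same cells. Of 11764 genes tested there, 4158 differed (35.3%), with 2262 higher (19.2%) and 1896 lower (16.1%) after etoposide. Of the 2803 genes that rose in RNA-seq 2405 could be tested, and 1756 of those rose in footprints too, 3 fell and 646 were not called. The 1756 make up 77.6% of the genes that rose in footprints. Of the 2740 that fell in RNA-seq 2615 could be tested, and 1491 also fell, which is 78.6% of the genes that fell in footprints, 3 rose and 1121 were not called. Across 11713 genes the 2 log2 differences had a Pearson correlation of 0.908 and a Spearman correlation of 0.853, a description over genes, which are not replicates and share their lysates.

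Lists with large RNA differences kept them in footprints. Of 51 histone genes tested 50 fell, of 74 mitotic genes 72 fell, of 10 chemokines 9 rose and of 50 lysosomal genes 40 rose. The chemokine count is again subject to the filter on low counts. CXCL5 differed by 7.21 in footprints, beside 7.19 in RNA, and LMNB1 by -3.15, beside -3.03. Some members went apart. H2AC6, slightly higher in RNA, was lower in footprints by 0.82 (edgeR adjusted p = 0.000589), and H1-2 by 1.12 (edgeR adjusted p = 7.43e-05). Only 8 of 76 ribosomal protein genes fell in footprints and 2 rose, with a median of -0.03. RPL5 was at 0.07 there and did not pass the test. Whether the footprint difference differs from the RNA difference was not tested.

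**Figure D5:**
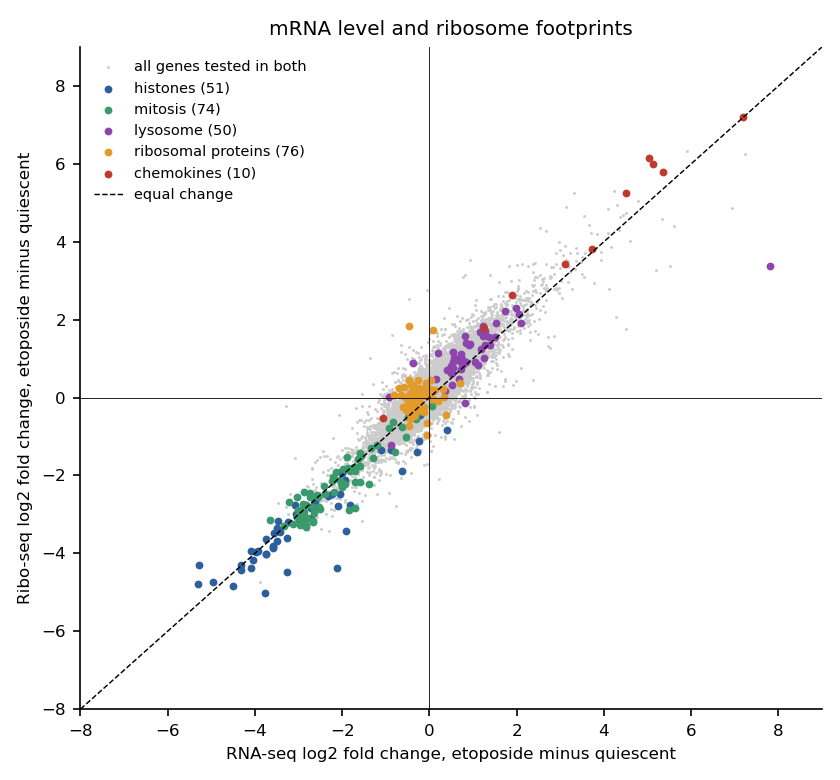
Log2 difference between etoposide and quiescent libraries in RNA-seq (x axis) and in ribosome footprints (y axis), 1 point per gene tested in both, with histone, mitosis, chemokine, lysosome and ribosomal protein genes coloured. Most histone and mitosis genes lie at the lower left and the chemokines other than CXCL12 at the upper right, and the lysosomal gene farthest to the right is ATP6V0D2, which had no quiescent RNA count, so its fitted value is no bound.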

How the data were processed

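RNA-seq of the 6 libraries was read from the deposited per-gene count files. Reads were aligned and counted with STAR 2.7.10b on hg38, per the submitters' processing notes, and libraries were made with a strand-specific kit, per the labels' protocols. The authors' raw counts for the strand that holds the reads were used, without normalization. STAR's summary rows did not enter the totals. They held 27.8 to 40.6% unmapped and 9.43 to 20.8% multimapping reads of each library, and 5.79 to 12.8% of uniquely mapped reads were ambiguous. Counting drops multimapping reads, which lowers genes with near copies.

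From these counts, protein-coding genes were filtered with filterByExpr, scaled with TMM and tested with edgeR 4.0.16's quasi-likelihood test (R 4.3.3) in 1 fit over all 13 RNA-seq libraries in 5 states, which share 1 estimate of the spread, with Benjamini-Hochberg adjustment over all genes tested. Thapsigargin-treated libraries (25 nM, 3 h) entered only that fit. Their labels give a different growth medium, and 1.35 to 1.4% of their RNA-seq reads did not map. Calls between etoposide and quiescent RNA-seq libraries were 6011 without the thapsigargin state and 4570 with only the compared groups in the fit. Ribosome footprints were fitted the same way. CPM are TMM-scaled, not corrected for length, and not compared between genes. Errors are SE of the log2 difference. Alternatives were DESeq2 1.42.0, its size factors, no filter, fewer states, unstranded counts, no robust estimation, a replicate block and leaving out each library. The scripts were tested on simulated data.

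The genes named were the 15 largest rises and falls without overlap and with at least 5 CPM in the higher group, a set of focal genes, and up to 5 called members per direction of each list with at least 1 CPM, besides members whose role needed it. Members, lists and motif letters were chosen with earlier results of these data known. Replicate numbers were not used to pair the libraries, except as a block in 1 alternative. Counting error is small at this depth except below about 1 CPM. A count of 0 is read against a floor of 3 counts over the group, which covers counting error only. Promoters and gene positions are from RefSeq, GRCh38.p14.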

Additional observations from a re-analysis of the deposited data

How the results depend on the processing

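The number of genes called between etoposide and quiescent libraries was 4158 to 6011 over the 14 alternatives in RNA-seq and 3116 to 5193 in ribosome footprints, all within 1.5 times of the reported counts. Leaving out 1 library gave 4158 to 5529 calls in RNA-seq, 3116 to 4570 in footprints and 1842 to 2312 between etoposide and irradiated libraries, where 1842 was reached without etoposide replicate 2 and 1897 without irradiated replicate 1, beside 3000 reported. The largest count between etoposide and irradiated libraries was 4385, with only the compared groups in the fit. Counts depended on which library was left out. Without quiescent replicate 3 the count between etoposide and quiescent libraries was 4570 in footprints, beside 4158 reported, and 5529 in RNA-seq, beside 5543 reported. With the replicate number as a block the counts were 5549, 4250 and 2953. Libraries with the same number showed no common deviation (correlations of -0.25, 0.17 and -0.33), so the numbers were not used to pair them. With so few libraries per group such correlations cannot exclude a pairing or a shared batch. Of 403 genes followed through the alternatives in which each could be tested 328 kept their direction and their side of the threshold, 75 changed side in at least 1 alternative and 0 reversed. The medians of 6 of 47 lists changed sign in some alternative, all of them between -0.03 and 0.22 as reported. Calls of genes under about 1 CPM are limited by depth.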
